A study of Mus musculus with 4 samples.

Results

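S100A8 was given to mice without lung cancer, and the expression of 98 genes in their lungs was compared with that in mice given Hank's salt solution (HBSS), the carrier of the protein. The 98 genes are all genes of the panel, measured with 2 housekeeping assays by RT-qPCR, and the 2 groups compared are 2 of the 4 groups of the series. The comparison asks what S100A8 by itself did to the lung in the absence of a tumour.

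All mice were female, of strain C57BL/6J and aged 6 to 8 weeks. S100A8 + vehicle mice received 10 µg of S100A8 through the nose on Day 3, Day 6 and Day 9, and HBSS + vehicle mice received HBSS on the same days. Lungs were taken on Day 10. "Vehicle" is the buffer and Matrigel mixture that was injected into the lung in place of tumour cells, so both groups carried an injected lung, and neither is an untouched lung. The S100A8 was a recombinant mouse protein made in *E. coli* as a fusion with glutathione-S-transferase and cut free with thrombin. The paper states that it was purified by reverse-phase chromatography and that precautions were taken to keep endotoxin low. The other 2 groups, HBSS + LLC and S100A8 + LLC, carried cells of Lewis lung carcinoma (LLC), a mouse lung cancer line. They are used below to show how a value of the cancer-free lungs stood, and to compare S100A8 with HBSS in lungs with a tumour.

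S100A8 is a small calcium-binding protein that neutrophils and other myeloid cells hold in large amounts, mostly paired with S100A9, and release during inflammation. Outside cells it can bind RAGE, a receptor that is abundant on alveolar type 1 cells of the lung, and TLR4, and it is readily oxidised. It is known both as an alarm signal that draws leukocytes and as a scavenger of oxidants that dampens inflammation.

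RT-qPCR reports the threshold cycle (Ct), the PCR cycle at which a transcript is first detected. Each cycle roughly doubles the product, so a lower Ct means more template, by about 2-fold per cycle. The deposited Ct of each gene is an average over 4 to 5 mice, so each group has 1 value per gene, and no spread between mice, no SD and no test between groups could be obtained. Every difference below is therefore a difference between 2 averages whose error is unknown. Each assay has its own primers, so a Ct does not rank the level of a gene against another, and it is used across genes only to say how late an assay was detected. The lung was taken whole, and fewer cells of a type and less RNA per cell cannot be told apart.

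Redox genes held several of the largest differences, and their promoters are shown first because they place the genes on the genome and show a letter pattern that some of them share. Windows of 300 bases around the start site (250 before it and 50 after it), from RefSeq on build GRCm38.p6, were found for 70 of the 98 panel genes. The antioxidant response element, searched as TGACNNNGC on both strands, is the sequence through which NRF2 drives many redox genes. It was present in the windows of 3 of the 8 genes with a window in the 2 redox lists below (*SOD1*, *PRDX1* and *MT2*), in 17 of the 70 panel genes, and in 12.4% of all 32851 promoter windows of that length. Panel genes are counted by gene, with a match in any window, and some have 2 windows. The percentage is by window, so the 2 shares differ in unit. The 3 stretches, written 5′ to 3′ along the gene with the match in capitals, lay at chr16:90220696-90220725 for *SOD1*, chr4:116685456-116685485 for *PRDX1* and chr8:94172529-94172558 for *MT2*, all on the plus strand.
SOD1: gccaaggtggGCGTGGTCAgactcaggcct
PRDX1: cagggaaagcGCTGAGTCAtcccccgtagg
MT2: aaagggggtgTGACTCAGCgcggggggtgg
In *SOD1* and *PRDX1* the capitals are the reverse complement of the pattern. The matches began 56, 133 and 79 bases upstream of the start sites of *SOD1*, *PRDX1* and *MT2*. Of all 17 panel genes with a match, 6 were more than 2-fold higher in S100A8 + vehicle, these 3 among them, against 27.8% of the panel genes with a fold change, and 2 were more than 2-fold lower (*KRT5* and *HIF-1β*), against 17.5%. *TXN*, which was higher too, had no match in its window, and the window of *MT1*, the close relative of *MT2*, held none either.

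NF-κB is the factor downstream of both RAGE and TLR4, and the NF-κB motif was searched on both strands as well. It was present in 13 of the 70 panel genes with a window and in 8.46% of all promoter windows, again counted by gene and by window. Among these 13 were *CXCL-1*, *CXCL-2* and *IL-6*, textbook inflammatory genes, shown as examples of the motif. Of the 13 genes, 5 were more than 2-fold higher after S100A8 (*PRDX1*, *TGF-β1*, *M-CSF*, *CAT* and *VEGFα*), against 27.8% of the panel, and 1, *IL-6*, was more than 2-fold lower, against 17.5%. The others, *CXCL-1* and *CXCL-2* among them, were under 2-fold. The motif was also in 3 of the 8 genes of the redox lists (*PRDX1*, *CAT* and *GPX1*), as many as held the antioxidant response element. The stretches of *CXCL-1*, *CXCL-2* and *IL-6* lay at chr5:90891164-90891193, chr5:90903792-90903821 and chr5:30013060-30013089 on the plus strand, with the motif in capitals.
CXCL-1: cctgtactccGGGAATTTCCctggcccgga
CXCL-2: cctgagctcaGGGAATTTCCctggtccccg
IL-6: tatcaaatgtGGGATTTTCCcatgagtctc
*CXCL-1* and *CXCL-2* held the same 10 letters. The motifs began 71, 97 and 44 bases upstream of the start sites of *CXCL-1*, *CXCL-2* and *IL-6*. A match describes the letters of the window and is not evidence of binding.

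Most assays crossed the threshold later in S100A8 + vehicle, both housekeeping assays included. The first housekeeping assay was detected at 14.1 cycles with HBSS and 16.2 with S100A8, a rise of 2.08 cycles. The second went from 22.5 to 23.3, a rise of 0.80 cycles. Before any normalization, Ct was higher in S100A8 + vehicle for 78 of the 98 genes, equal for 1 gene and lower for 19 genes, with a median rise of 1.08 cycles. The 19 genes with a lower Ct had more template after S100A8 in the Ct values themselves, whereas 42 genes had a normalised level above that of HBSS + vehicle by less than the mean rise of the housekeeping assays, 1.44 cycles. Genes are normalised here to the mean of both housekeeping assays, and either assay alone moves every log2 fold change by 0.64 in opposite directions, so that the 2 references lie 2.43-fold apart. The order of the genes does not depend on this choice.

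**Figure D1:**
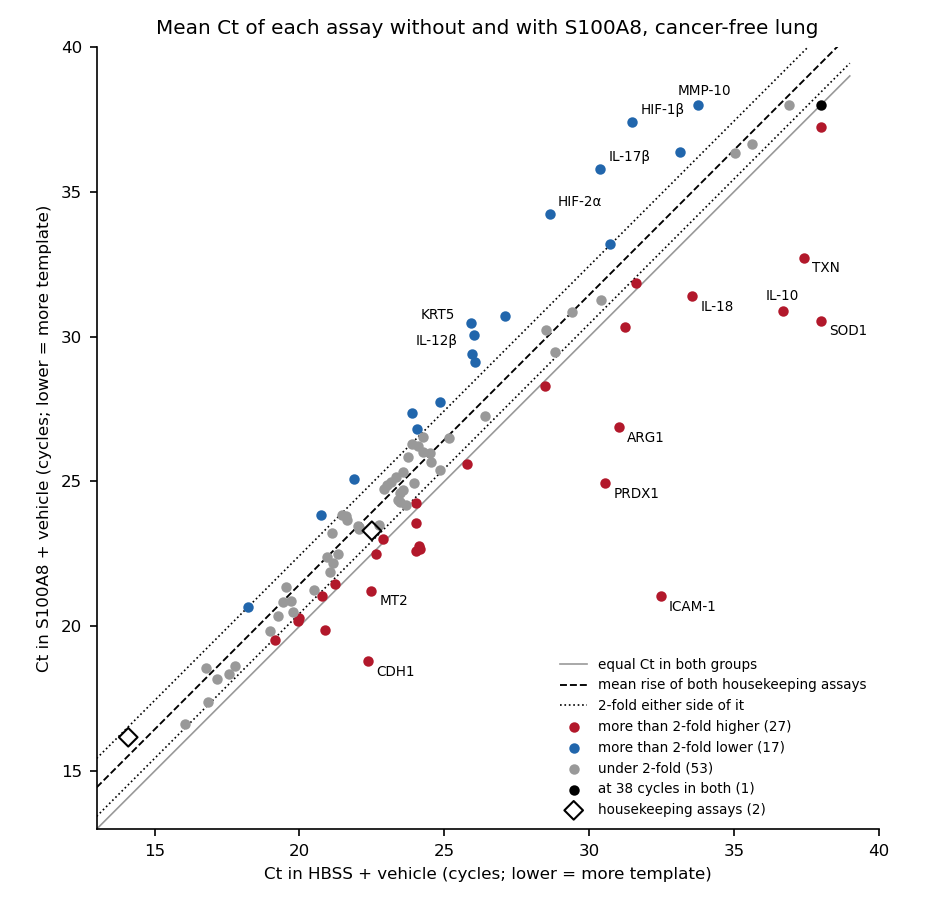
Mean Ct of each of the 98 panel genes and 2 housekeeping assays in HBSS + vehicle (x axis, cycles) and S100A8 + vehicle (y axis, cycles); points below the solid line had more template after S100A8, and the dashed and dotted lines mark the mean rise of the housekeeping assays and 2-fold either side of it. *ICAM-1* lies farthest below the lines, at 32.5 and 21.0 cycles, and most other points lie within the dotted band.

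A fold change could be computed for 97 genes. *HIF-3α* was at the cut off of 38 cycles in both groups and has none. More than 2-fold higher in S100A8 + vehicle were 27 of the 97 genes (27.8%), and 17 (17.5%) were more than 2-fold lower. The median log2 fold change of the 97 genes was 0.34. Which direction held more genes depended on the reference. The second housekeeping assay gave 16 higher and 30 lower genes, and the first gave 48 and 11. When the median Ct of the panel genes served as reference, 19 were higher and 25 lower. With each housekeeping assay alone as well as with their mean, 16 of the 27 higher genes and 11 of the 17 lower genes stayed past 2-fold, 27 genes in all. Those that did not stay were *ALOX12*, *SAA3*, *MKP1*, *HO-1*, *M-CSF*, *SOCS3*, *S100A8*, *G-CSF*, *CAT*, *VEGFα* and *S100A9* among the higher genes, and *LCK*, *IL-6*, *CCL-2*, *CCL-11*, *IL-23* and *CXCR4* among the lower. Nearest the threshold, *S100A9* (1.06) and *CXCR4* (-1.01) lay just inside it on the log2 scale, and *GM-CSF* (0.94) and *GPX1* (-0.97) just outside.

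Genes detected late made up much of the list. Of the 19 genes with a control Ct over 30, 15 were past 2-fold either way (78.9%), against 8 of 13 between 25 and 30 (61.5%), 17 of 49 between 20 and 25 (34.7%) and 4 of 16 at or below 20 (25%). The median size of the log2 fold change was 2.80 over 30 cycles and 0.61 at or below 20 cycles. Of the 8 genes more than 8-fold higher, 7 started from a control Ct over 30, the exception being *CDH1*. At such cycles an assay may start from few molecules, or its primers may work less well. The part either plays in these differences was not tested. When neither group was allowed a Ct over 30, 10 of the 27 genes that stayed past 2-fold under each reference were left. They were *CDH1*, *TGF-β1*, *GSTM*, *MMP-9*, *MT2*, *CDKN1A* and *CXCL-12*, all higher, and *COL10A1*, *IL-5* and *PTGS2*, all lower. The other assay of the *PTGS2* gene, *COX-2*, was 1.21-fold lower and not past 2-fold under any reference.

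**Figure D2:**
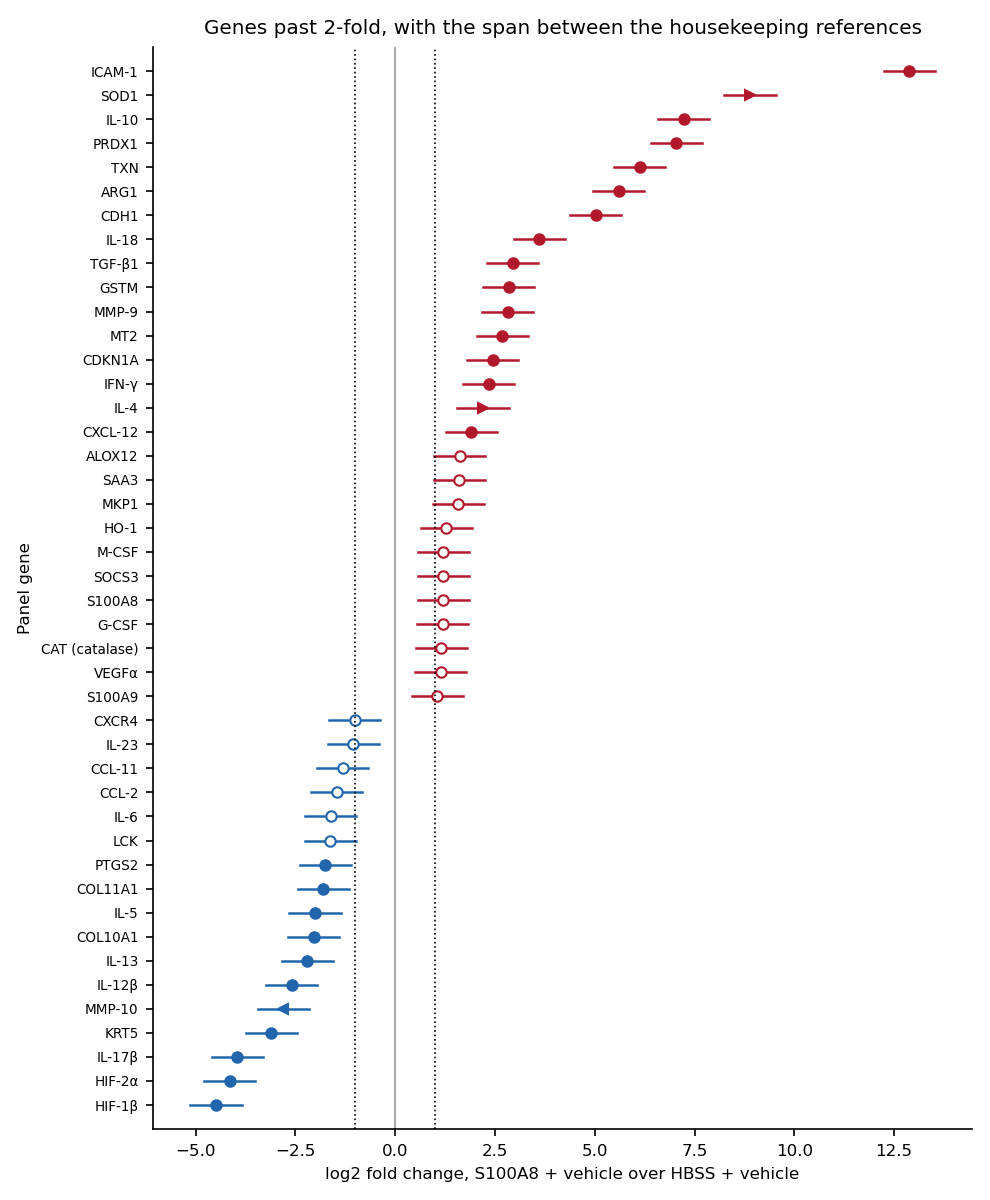
Log2 fold change of S100A8 + vehicle over HBSS + vehicle for the 44 genes past 2-fold (dotted lines); the bar spans the values with either housekeeping assay alone, filled points stayed past 2-fold under both, and triangles are bounds where 1 group was at 38 cycles. Filled points run from 12.88 for *ICAM-1* to -4.49 for *HIF-1β*.

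Among 7 adhesion molecules and cadherins, 2 were more than 2-fold higher (28.6%, close to the 27.8% of the panel) and none was lower. *ICAM-1*, the endothelial and epithelial ligand by which leukocytes adhere through β2 integrins, went from 32.5 cycles with HBSS to 21.0 cycles with S100A8, a 7538-fold higher normalised level. *CDH1*, which encodes the E-cadherin of epithelial junctions, went from 22.4 to 18.8 cycles and was 32.7-fold higher. It was the only gene over 8-fold that was readily detected in both groups. The other 5 adhesion genes lay between 0.669-fold (*VCAM-1*, the endothelial partner of α4 integrins) and 1.61-fold (*CADM1*). *VCAM-1* had a Ct of 21.6 and 23.7, so that the 2 leukocyte ligands, *ICAM-1* and *VCAM-1*, did not move together.

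For *ICAM-1* it was the control that stood apart among the 4 groups. Its Ct was 19.2 in HBSS + LLC and 21.4 in S100A8 + LLC, close to the 21.0 of S100A8 + vehicle, while HBSS + vehicle was at 32.5. After normalisation the 3 groups other than HBSS + vehicle lay within 0.83 cycles of each other, and HBSS + vehicle was 12.07 cycles above the highest of them. *IL-10*, *PRDX1*, *ARG1*, *CDH1* and *IL-18* had the same form. Their spans over the 3 other groups were 0.76, 1.10, 0.83, 1.41 and 1.41 cycles, and HBSS + vehicle stood 6.47, 7.04, 4.77, 3.62 and 3.61 cycles above. HBSS + vehicle also stood above the other groups, by smaller gaps, for *TGF-β1*, *GSTM*, *MT2*, *CDKN1A*, *MKP1* and *HO-1*. These gaps were 1.68, 1.46, 1.6, 1.55, 0.98 and 0.72 cycles. Each was larger than the span of the 3 other groups, at 1.27, 1.38, 1.08, 0.89, 0.76 and 0.56 cycles. Among lower genes described below, the control stood apart on the other side for *HIF-2α*, *KRT5*, *LCK*, *CCL-2*, *IL-23*, *CXCR4* and *CCL-11*. It lay 2.29, 2.22, 1.63, 1.47, 0.86, 0.85 and 0.69 cycles below the lowest of the 3 groups. Those groups spanned 1.86, 0.89, 0.74, 0.83, 0.74, 0.41 and 0.62 cycles. All comparisons with HBSS + vehicle share this 1 average, and whether a few of its 4 to 5 mice decided it was not tested.

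Enzymes that handle superoxide and peroxide are the next group. Of 6 such genes, 4 were higher (66.7%, against 27.8% of the panel) and none was lower (17.5% of the panel). Their median log2 fold change was 3.64, or 2.44 with Ct values capped at 35, against 0.34 for the panel. *SOD1*, the cytosolic enzyme that turns superoxide into hydrogen peroxide, was at 38 cycles in HBSS + vehicle and 30.6 in S100A8 + vehicle, at least 474-fold higher, or at least 59.3-fold with Ct values capped at 35 cycles. *PRDX1*, a peroxiredoxin that reduces peroxides, went from 30.6 to 24.9 cycles and was 132-fold higher. *TXN*, the thioredoxin that recycles peroxiredoxins, went from 37.4 to 32.7 cycles and was 70.0-fold higher, or at least 13.2-fold with the cap. These 3 proteins act in succession on the same oxidants, and all 3 were near or beyond 30 cycles in the control.

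The remaining genes of this list lay nearer the threshold. *CAT*, the catalase of peroxisomes, had a Ct of 20.8 and 21.1 and was 2.22-fold higher, or 1.42-fold with the second housekeeping assay alone. *GPX1*, the glutathione peroxidase of the cytosol, had a Ct of 23.9 and 26.3 and was 1.96-fold lower, or 3.05-fold with the second housekeeping assay alone, opposite in direction to *PRDX1*, *TXN* and *CAT*. *NOX2*, the phagocyte enzyme that makes superoxide, was at 1.59-fold. *SOD1* and *TXN* were still detected late after S100A8 alone, whereas in HBSS + LLC they were detected at 21.8 and 20.9 cycles. Whether little transcript or the assays themselves gave the late values in cancer-free lungs was not tested.

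The 4 genes of the metallothionein, glutathione transferase and heme oxygenase list held 3 that were higher (75%, against 27.8% of the panel), with a median log2 fold change of 1.98. *GSTM*, a glutathione transferase whose family member the panel name does not give, went from 24.0 to 22.6 cycles and was 7.16-fold higher. *MT2*, a metallothionein that binds zinc and copper, went from 22.5 to 21.2 cycles and was 6.41-fold higher. *HO-1*, which breaks down heme, went from 22.9 to 23.0 cycles and was 2.43-fold higher, or 1.56-fold with the second housekeeping assay alone. *MT1* had a Ct of 23.6 and 25.3 and was at 0.790-fold, so the log2 fold changes of the 2 metallothioneins, both well detected, lay 3.02 apart. *MT1* and *MT2* sit close together on chromosome 8 and are known to respond to the same metals.

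Both regulatory cytokines were more than 2-fold higher, against 27.8% of the panel. *IL-10*, which restrains macrophages and dendritic cells, went from 36.7 to 30.9 cycles and was 150.1-fold higher, or at least 46.9-fold with Ct values capped at 35. *TGF-β1*, which limits T cells and drives matrix production, went from 24.2 to 22.7 cycles and was 7.73-fold higher. Both stayed past 2-fold under each reference, as did 16 of the 97 panel genes in this direction, and *TGF-β1* did so at cycles where it was readily detected.

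The 3 type 2 cytokines split, with 1 higher (27.8% of the panel) and 2 lower (17.5% of the panel). *IL-5*, the growth factor of eosinophils, went from 26.0 to 29.4 cycles and was 4.03-fold lower. *IL-13*, which acts on airway epithelium and mucus, went from 27.1 to 30.7 cycles and was 4.59-fold lower. *IL-4*, which shares a receptor chain with *IL-13*, was at 38 cycles in HBSS + vehicle and 37.2 in S100A8 + vehicle, at least 4.59-fold higher. All 3 values stayed past 2-fold under each reference, as did 27 of the 97 panel genes, but *IL-4* was at the edge of detection in both groups, and with Ct values capped at 35 it has no fold change. *CCL-11*, the eotaxin that draws eosinophils, went from 24.1 to 26.8 cycles and was 2.48-fold lower, and only 1.59-fold with the first housekeeping assay alone.

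The type 1 axis split as well, with 2 of 7 genes higher and 2 lower (28.6% each, against 27.8% and 17.5% of the panel). *IL-18*, which with IL-12 induces interferon-γ, went from 33.6 to 31.4 cycles and was 12.2-fold higher. *IFN-γ*, the macrophage-activating product of T and NK cells, went from 31.2 to 30.3 cycles and was 5.06-fold higher. *IL-12β*, the subunit shared by IL-12 and IL-23, went from 26.0 to 30.1 cycles and was 6.02-fold lower. *IL-23* was 2.07-fold lower, from 30.7 to 33.2 cycles, and 1.33-fold with the first housekeeping assay alone. The interferon-induced chemokines *CXCL-9* and *CXCL-10* were at 0.629-fold and 1.87-fold, and *IL-2*, at 36.9 and 38 cycles, has an upper bound of 1.26-fold.

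Of the 5 innate inflammatory cytokines none was more than 2-fold higher, against 27.8% of the panel, and 2 were lower (40%, against 17.5%). *IL-17β*, a relative of IL-17A, went from 30.4 to 35.8 cycles and was 15.6-fold lower, or at least 9.06-fold with the cap at 35 cycles. *IL-6* went from 26.1 to 29.1 cycles and was 3.07-fold lower, or 1.97-fold with the first housekeeping assay alone. *IL-1β*, *TNF-α* and *MIF* lay at 0.637-fold, 1.23-fold and 1.29-fold. *IL-1β* is the classic product of macrophages and neutrophils under an alarm signal, and it had a Ct of 21.1 and 23.2.

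Of the 12 chemokines, 1 was more than 2-fold higher (8.33%, against 27.8% of the panel), 2 were lower (16.7%, against 17.5%) and 9 were under 2-fold, as were 53 of the 97 panel genes. Their median log2 fold change was -0.14. The neutrophil chemokines *CXCL-1*, *CXCL-2* and *CXCL-5*, whose protein products act on the receptor CXCR2, lay at 0.801-fold, 1.39-fold and 0.629-fold. *CCL-2*, which recruits monocytes, went from 24.8 to 27.8 cycles and was 2.77-fold lower, or 1.78-fold with the first housekeeping assay alone. *CXCL-12*, made by stromal cells to hold leukocytes and progenitors, went from 24.0 to 23.6 cycles and was 3.76-fold higher. Its receptor *CXCR4*, carried by leukocytes, went from 18.2 to 20.7 cycles and was 2.01-fold lower, so the ligand and its receptor lay on opposite sides. The other CC chemokines, *CCL-3*, *CCL-4*, *CCL-5* and the assay named *CCL-13*, lay between 0.747-fold and 1.55-fold.

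The colony-stimulating factors, which expand and keep myeloid cells, lay close together. *M-CSF* had a Ct of 24.03 and 24.26 and was 2.31-fold higher. *G-CSF* had a Ct of 31.6 and 31.9 and was 2.28-fold higher. *GM-CSF* was at 1.92-fold. Thus 2 of 3 were higher, against 27.8% of the panel. None of the 3 was past 2-fold with the second housekeeping assay alone, where 16 of the 97 panel genes were higher and *M-CSF* was 1.48-fold.

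The lung's own *S100A8* mRNA had a Ct of 19.9 in HBSS + vehicle and 20.2 in S100A8 + vehicle, and *S100A9* mRNA had 19.1 and 19.5. Normalised, they were 2.30-fold and 2.08-fold higher, and 1.47-fold and 1.34-fold with the second housekeeping assay alone. The protein that was given carries no mRNA, so these assays do not show whether it reached the lung. *SAA3*, an acute-phase protein induced in inflamed lung, went from 25.8 to 25.6 cycles and was 3.05-fold higher, or 1.96-fold with the second housekeeping assay alone. *S100A4* was at 1.09-fold.

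The receptor RAGE was measured by 2 assays, since the panel names *RAGE* and *AGER* stand for the same mouse gene, Ager. *RAGE* had a Ct of 16.9 and 17.4 and *AGER* 16.1 and 16.6, and their fold changes were 1.87 and 1.83, within 0.03 of each other on the log2 scale. A similar pair did not match as closely. *COX-2* and *PTGS2* both name Ptgs2, the inducible enzyme of prostaglandin synthesis. *COX-2* had a Ct of 28.5 and 30.2 and was 1.21-fold lower, whereas *PTGS2* had 21.9 and 25.1 and was 3.36-fold lower, a gap of 2.77-fold. These pairs are the only genes of the panel with 2 assays, and their gaps, from 0.03 to 1.47 on the log2 scale, are the only repeat of a fold change that the panel offers. *ALOX12*, the 12-lipoxygenase, had a Ct of 28.5 and 28.3 and was 3.07-fold higher, or 1.97-fold with the second housekeeping assay alone.

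Arginine and tryptophan enzymes, through which myeloid cells starve T cells or make nitric oxide, held 1 gene more than 2-fold higher out of 5 (20%, against 27.8% of the panel) and none lower. *ARG1*, the arginase of alternatively activated macrophages, went from 31.03 to 26.9 cycles and was 48.5-fold higher. *ARG2*, *iNOS*, *IDO* and the arginine transporter *CAT2* lay between 1.32-fold and 1.74-fold. *iNOS*, which competes with arginase for arginine, had a Ct of 26.4 and 27.3.

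**Figure D3:**
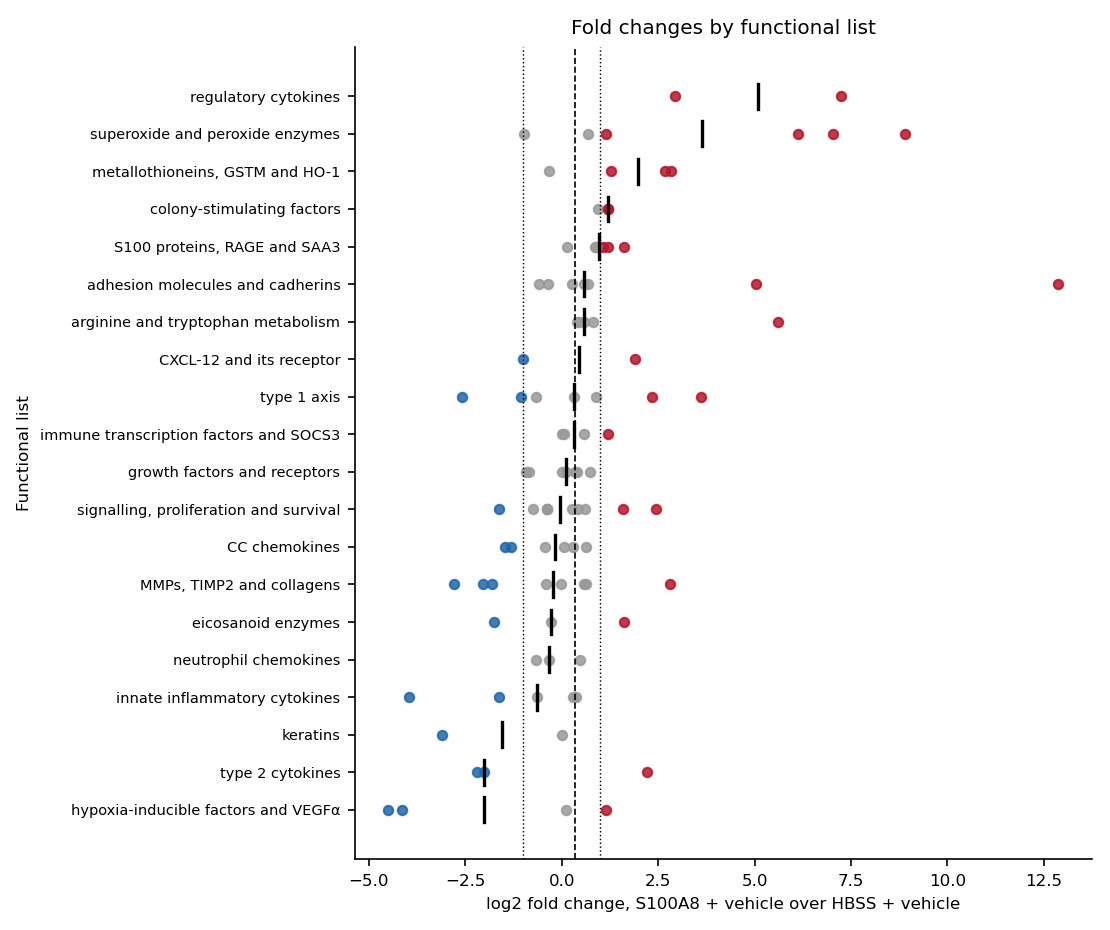
Log2 fold change of each gene (points; red more than 2-fold higher, blue more than 2-fold lower, grey under 2-fold) by functional list, with the list median (vertical tick), the median of all genes at 0.34 (dashed) and 2-fold (dotted). The list medians run from 5.09 for the regulatory cytokines to -2.02 for the hypoxia list, and several lists hold genes on both sides.

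Hypoxia-inducible factors held the lowest values of the panel. *HIF-1β* (gene Arnt), the constant partner that all HIF α subunits need to bind DNA, went from 31.5 to 37.4 cycles and was 22.5-fold lower. *HIF-2α* (gene Epas1), the oxygen-regulated subunit that is abundant in lung endothelium, went from 28.6 to 34.2 cycles and was 17.8-fold lower. *HIF-1α* had a Ct of 35.03 and 36.35 and was at 1.09-fold, and *VEGFα*, a target of these factors and a product of alveolar epithelium, had 19.99 and 20.29 and was 2.20-fold higher, or 1.41-fold with the second housekeeping assay alone. With Ct values capped at 35 cycles, *HIF-1β* was at least 4.23-fold lower.

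The proteases and matrix genes were divided. *MMP-9*, the gelatinase of neutrophils and macrophages, went from 24.1 to 22.8 cycles and was 7.06-fold higher. *MMP-10*, a stromelysin of epithelium, went from 33.8 to 38 cycles and was at least 6.96-fold lower. This rests on cycles near the cut off, and with Ct values capped at 35 it is an upper bound of 1.15-fold, with no direction. Of the collagens, *COL10A1* went from 23.9 to 27.4 cycles and was 4.11-fold lower, and *COL11A1* from 33.1 to 36.4 cycles, 3.48-fold lower, or at least 1.35-fold with the cap. *MMP-2*, *MMP-3*, *MMP-13* and the inhibitor *TIMP2* lay between 0.758-fold and 1.56-fold.

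Growth factors and their receptors held none of 7 genes past 2-fold, against 44 of the 97 panel genes. *EGFR* was at 1-fold, *HGF* and *IGF-1* at 0.529-fold and 0.559-fold, and *KIT* was the highest at 1.66-fold. Among 10 genes of signalling, proliferation and survival, 2 were higher (20%, against 27.8% of the panel) and 1 was lower (10%, against 17.5%). *CDKN1A*, which encodes the cell cycle inhibitor p21, went from 20.9 to 19.9 cycles and was 5.43-fold higher, while *p53*, its best known activator, was at 1.53-fold and *MKI67*, a marker of dividing cells, at 0.763-fold. *MKP1* (gene Dusp1), a phosphatase that switches off MAP kinases, went from 22.6 to 22.5 cycles and was 2.99-fold higher, or 1.92-fold with the second housekeeping assay alone. *LCK*, the kinase of the T cell receptor, went from 20.8 to 23.8 cycles and was 3.10-fold lower, or 1.99-fold with the first housekeeping assay alone. Of the immune transcription factors, *STAT3*, *NF-κB* and *IRF-4* lay between 1.01-fold and 1.49-fold, and *SOCS3*, the feedback inhibitor of STAT3, was 2.31-fold higher, from a Ct of 21.2 to 21.5.

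The panel holds 14 markers of lung and blood cell types and of dividing cells, *RAGE* and *AGER* among them for the same gene. All 14 were detected, between 16.1 and 29.4 cycles in HBSS + vehicle and between 16.6 and 30.8 in S100A8 + vehicle. None was chosen to mark another tissue, so their detection cannot test the tissue label. Of the 14 markers 3 were more than 2-fold higher (*CDH1*, *S100A8* and *S100A9*; 21.4%, against 27.8% of the panel) and 2 were lower (*KRT5* and *LCK*; 14.3%, against 17.5%), with a median log2 fold change of 0.42 against 0.34 for the panel. *KRT5*, the keratin of airway basal cells, went from 25.9 to 30.5 cycles and was 8.57-fold lower, whereas *KRT14*, the other basal keratin, had 29.4 and 30.8 cycles and was at 1.01-fold. The epithelial markers *CDH1* and *MUC1* differed too, at 32.7-fold and 1.49-fold. The endothelial markers *CAV1*, *CDH13* and *VCAM-1* lay between 0.669-fold and 1.21-fold, and the phagocyte gene *NOX2* at 1.59-fold. The part that shifts in cell types play in the differences above was not tested.

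S100A8 + LLC against HBSS + LLC is the same treatment in lungs with a tumour and shares no sample with the comparison above. There 11 of 98 genes (11.2%) were higher by more than 2-fold, and 15 (15.3%) were lower. Of the 27 genes higher in cancer-free lungs, 3 were also higher with LLC (*SOD1*, *TXN* and *G-CSF*), 4 were lower and 20 were under 2-fold. Either housekeeping assay alone moves the log2 values of the LLC pair by 0.86, and with the first alone *TXN* and *G-CSF* fell under 2-fold there, at 0.28 and 0.67, and *SOD1* did not. Of the 17 lower genes, 4 were also lower with LLC (*HIF-2α*, *IL-12β*, *IL-5* and *PTGS2*), 3 were higher and 10 were under 2-fold. With the second housekeeping assay alone only *IL-12β* of these 4 stayed past 2-fold with LLC, and *HIF-2α*, *IL-5* and *PTGS2* were at -0.61, -0.87 and -0.22 on the log2 scale. *ICAM-1* was 7538-fold higher with S100A8 in cancer-free lungs and 1.78-fold lower with S100A8 in LLC lungs, where HBSS had already given a Ct of 19.2. *IL-12β* was lower in both, by 6.02-fold and 83.3-fold. Over the 97 genes the median size of the log2 fold change was 0.90 without and 0.55 with LLC, and no test of this difference was possible.

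**Figure D4:**
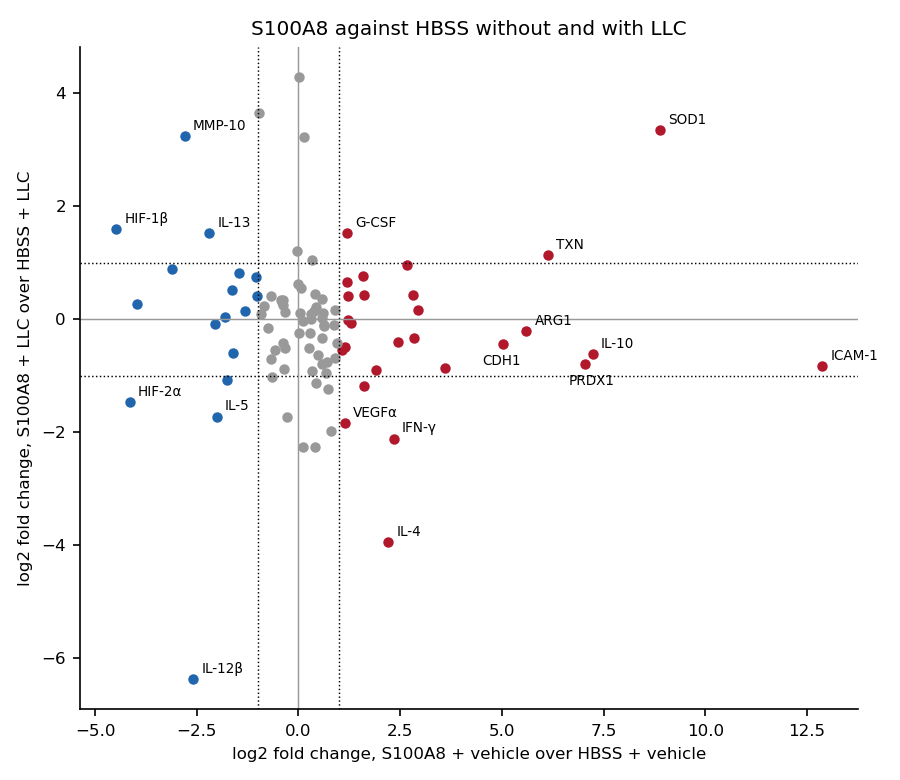
Log2 fold change of S100A8 over HBSS without LLC (x axis) and with LLC (y axis) for 97 genes, coloured by the comparison without LLC (red more than 2-fold higher, blue more than 2-fold lower, grey under 2-fold); dotted lines mark 2-fold. *ICAM-1*, *IL-10*, *PRDX1*, *ARG1* and *CDH1* lie far to the right and within the dotted band of the y axis, and *SOD1* and *TXN* lie above it.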

How the data were processed

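RNA of whole lungs (1.5 µg) was reverse-transcribed and amplified with SYBR Green. The labels name a LightCycler and the methods a QuantStudio machine. The authors set a cut off of 38 cycles, averaged Ct over mice and deposited 1 Ct per assay and group without normalization, under assay numbers. They also deposited fold changes, a ratio against HBSS + vehicle. These were used only to name assays and groups, by matching them with the fold changes that a supplementary table lists by gene (tolerance 5e-05 plus a relative 1e-05), and no value of either is reported. All 98 genes matched 1 assay each, and the 2 assays left over were taken as housekeeping. RefSeq symbols were assigned to 93 genes. GSTM, MST1, CCL-13, IL-23 and NF-κB were left unassigned.

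Log2 fold change is the negative difference between groups in Ct minus the mean housekeeping Ct. A value is treated as a bound where 1 group was at 38. The average of the other group may itself hold mice at that cut off. Ct values and fold changes are given for each gene past 2-fold, S100A8, S100A9, genes with 2 assays and the housekeeping assays, and other genes mostly by fold change. Alternatives were each housekeeping assay alone, the panel median, a cap at 35, Ct limits of 30 and 35, and thresholds of 1.5-fold and 3-fold. Functions were tested on simulated Ct values (Python 3.11.15, scipy 1.17.1, matplotlib 3.10.9). Genes and lists were chosen with earlier results of these data known. Precision cannot be stated, because each group has 1 average.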

Additional observations from a re-analysis of the deposited data

Results flagged for a closer look

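Without LLC and with LLC, S100A8 gave differences of more than 2-fold in opposite directions for 7 genes. There is 1 average per group, so the difference between the 2 effects was not tested. The effect with LLC minus the effect without LLC, on the log2 scale, came to -6.16 in *IL-4* and to -4.46 in *IFN-γ*. Both were higher after S100A8 in cancer-free lungs and lower in LLC lungs. *VEGFα* and *ALOX12* had the same form, at -2.98 and -2.81. The opposite form, lower in cancer-free lungs and higher in LLC lungs, was found for *HIF-1β* at 6.08, *MMP-10* at 6.04 and *IL-13* at 3.72. *IL-4* and *MMP-10* were at 38 cycles in 1 cancer-free group each, so their values are treated as bounds. For *IL-4* the other cancer-free average, 37.2 cycles, may itself hold mice at that cut off. With each housekeeping assay alone, 3 of the 7 (*IL-4*, *IFN-γ* and *MMP-10*) stayed past 2-fold both ways. With the second assay alone, *VEGFα* and *ALOX12* fell under 2-fold in both kinds of lung. With the first alone, *HIF-1β* and *IL-13* fell under 2-fold in LLC lungs, to 0.73 and 0.66 on the log2 scale.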

How the results depend on the processing

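Higher genes numbered 48 against the first housekeeping assay, 16 against the second and 17 with a Ct of at most 30 in both groups. The count of lower genes was 11, 30 and 8 under the same settings. Both counts stayed within 1.5 times of 27 and 17 with the panel median, the cap at 35 cycles, the limit of 35 cycles and thresholds of 1.5-fold and 3-fold. With the panel median they were 19 higher and 25 lower, so lower genes outnumbered higher ones, as with the second housekeeping assay. The median log2 fold change of the panel was 0.98 with the first and -0.30 with the second housekeeping assay, -0.095 with the panel median and 0.355 with either Ct limit. The 27 genes past 2-fold with each reference became 10 with the limit of 30 cycles. The 7 genes with opposite effects without and with LLC became 27 with the first housekeeping assay, 19 with the second, 12 with the panel median, and 2 and 4 with the limits of 30 and 35 cycles.

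List medians changed sign as follows. With the first housekeeping assay they became 0.505 for chemokines, 0.32 for neutrophil chemokines, 0.455 for CC chemokines, 0.36 for eicosanoid enzymes, 0.595 for signalling, proliferation and survival and 0.425 for proteases and collagens (0.085 with the cap). With the second they became -0.29 for cytokines, -0.31 for the type 1 axis, -0.19 for *CXCL-12* and its receptor, -0.32 for immune transcription factors, -0.06 for arginine and tryptophan enzymes, -0.54 for growth factors and -0.06 for adhesion genes. With the panel median they became -0.085 for cytokines, -0.105 for the type 1 axis, -0.115 for immune transcription factors and -0.335 for growth factors. Of the genes past 2-fold, 1 changed sign, *MMP-10*, to 0.20 with the cap, where it is a bound. With the panel median, 8 of the 27 higher genes fell under 2-fold, and with the cap *COL11A1* did. With the cap, 5 genes at or above 35 cycles in both groups, *IL-4* among them, have no fold change. The cause of these shifts is the reference or limit itself.

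No paired analysis was possible because each group has 1 average. Leaving out a mouse was not run for the same reason.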
